A study of Mus musculus with 2 samples.

Results

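Mir130a, Mir130b, Mir301 and Mir301b are the 4 annotated mouse miRNA genes of the miR-130 and miR-301 family followed here. They were taken by name from the 2202 miRNA genes of GENCODE M21 counted in each library, with Mir301 the annotation's symbol for the gene also written Mir301a. The libraries hold small RNA of under 30 nt from the adrenal glands of male B6CASTF1/J mice aged 2 months, first-generation hybrids of a laboratory strain and a wild-derived castaneus strain. Replicate 1 came from animal 3 and replicate 2 from animal 4, and both belong to 1 group, with no treatment named and no second tissue, age or genotype. The labels number them as separate animals and biological replicates but list the same donor entry for both, so reading n = 2 as 2 animals rests on those numbers. The gland joins a cortex that makes steroid hormones to a medulla that makes catecholamines, and the tissue was not separated by cell type. The question the data can answer for these genes is how much of each was counted and how far 2 animals differed.

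A miRNA is a short RNA that guides the silencing machinery to messenger RNAs, mainly by pairing of its seed, bases 2 to 8 counted from the 5′ end. A hairpin precursor can release a product from either arm, named 5p and 3p. The miR-130 and miR-301 family is known from endothelial cells, where miR-130a represses anti-angiogenic homeobox genes, and from fat cells and blood vessel walls, where the family represses the nuclear receptor gene Pparg. Its members are found in many tissues.

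The 3p products are shown first because the seed is what makes these genes a family. All 4 genes matched the RefSeq miRNA table by symbol (GRCm38.p6, with 4 hairpins and 7 mature sequences), and all 4 hairpins have the same coordinates there as in GENCODE M21. Capitals mark the seed.
miR-130a-3p: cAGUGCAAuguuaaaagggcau
miR-130b-3p: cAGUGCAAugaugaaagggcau
miR-301a-3p: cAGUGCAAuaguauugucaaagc
The seed AGUGCAA is identical in all 3, and the sequences part downstream of it. With positions counted from 1 at the 5′ end of the first-named sequence, miR-130a-3p and the matching stretch of the Mir130b hairpin differ by U11A and A13G, so 20 of 22 bases are the same. Against the Mir301 hairpin, miR-130a-3p keeps 12 of 22 bases. The product of Mir301 and the matching stretch of the Mir301b hairpin are closer: 22 of 23 bases are the same, and the difference is A10G.

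The hairpins of the chromosome 16 pair are shown because these neighbours gave very different counts. Capitals mark the same 7 seed letters, which each member hairpin holds once.
Mir130b hairpin: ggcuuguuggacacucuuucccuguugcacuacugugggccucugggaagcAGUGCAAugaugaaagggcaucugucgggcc
Mir301b hairpin: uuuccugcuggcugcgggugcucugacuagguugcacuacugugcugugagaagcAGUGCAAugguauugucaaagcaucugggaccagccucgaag
No full 3p product of Mir130a, Mir130b or Mir301 lies in the hairpin of another gene in the table. The longest run a member hairpin shares with any other hairpin was 17 bases for Mir130a (with Mir6389) and 16 bases each for Mir130b (with Mir6368) and for Mir301 with Mir301b. Reads that aligned to several places (26.2% of replicate 1 and 28.8% of replicate 2) were left out of all gene counts, and how many of them came from the family is not known. The files give 1 count per gene, so the 5p and 3p arms cannot be separated.

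The members lie at 3 loci (mm10, GENCODE M21). Mir130a (ENSMUSG00000065484.1) is on the minus strand of chromosome 2 at 84741115 to 84741178, outside any other annotated gene. Its nearest neighbours are Gm19426, 990 bases away on the same strand, and Ypel4, 2459 bases away on the other strand. Mir301b (ENSMUSG00000076288.1; chromosome 16, 17124400 to 17124496) and Mir130b (ENSMUSG00000065572.1; chromosome 16, 17124061 to 17124142) are both on the minus strand, 257 bases apart, in the first intron of 2610318N02Rik. Mir301 (ENSMUSG00000065589.1) is on the plus strand of chromosome 11 at 87113004 to 87113089, in the first intron of Ska2, which encodes a subunit of the spindle and kinetochore complex. Host and miRNA share the strand in both introns. The messenger RNAs of the hosts were not measured.

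**Figure D1:**
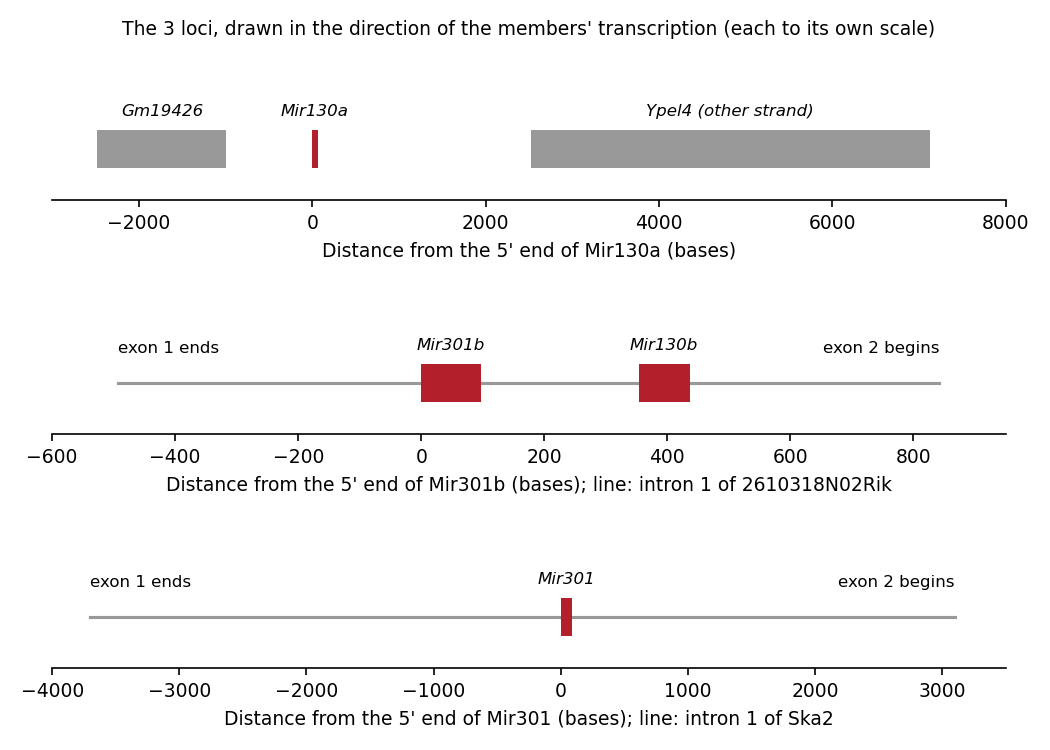
Map of the 3 loci in the direction of transcription of the members, with the distance in bases from the 5′ end of the first-named member on each x axis; red boxes are member hairpins, grey boxes other genes and grey lines the host introns. Mir130a stands alone, Mir301b and Mir130b follow each other within 1 intron of 1335 bases (the shorter of the annotated forms), and Mir301 lies 3699 bases into an intron of Ska2.

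By counts, Mir130a was the abundant member of the family in both animals, and the other members were lower by more than 20-fold. The own-strand counts summed over all miRNA genes to 5752428 in replicate 1 and to 3333149 in replicate 2. Levels are given as CPM, the own-strand count of a gene per 1000000 of these totals, and a count of 0 (limit: 3 counts) allows levels of up to 0.522 CPM in replicate 1 and up to 0.900 CPM in the other library. The intervals and limits cover counting error only, because several reads can come from 1 molecule. The 4 genes together held 2726 CPM in the first animal and 4296 CPM in the second, or 0.273% and 0.430% of the miRNA counts (3511 ± 1110 CPM, SD, n = 2).

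Mir130a had 14532 counts in replicate 1 and 13481 in replicate 2. These are 2526 CPM (95% exact Poisson interval 2485 to 2568) and 4045 CPM (3977 to 4113), 3285 ± 1074 CPM in mean (SD, n = 2). Replicate 2 was the higher library, and the intervals did not overlap. The gene ranked 44 of 2202 in replicate 1 and 39 in replicate 2.

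Mir130b, a gene also studied in fat cell formation, had 674 and 510 counts. Its level was 117 CPM (108 to 126) in replicate 1 and 153 CPM (140 to 167) in replicate 2, 135 ± 25.3 CPM in mean (SD, n = 2). Mir301 had 472 and 325 counts, which gave 82.0 CPM (74.8 to 89.8) and 97.5 CPM (87.2 to 109), 89.8 ± 10.9 CPM in mean (SD, n = 2). Both were in the middle of the detected range, close to the median of the 372 genes with 2 CPM or more in both libraries (80.6 CPM in replicate 1 and 92.9 CPM in replicate 2). Their ranks barely moved between the animals, at 165 and 166 for Mir130b and 182 and 183 for Mir301.

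Mir301b had 6 counts in replicate 1 and 4 in replicate 2, or 1.04 CPM (0.383 to 2.27) and 1.20 CPM (0.327 to 3.07). Both counts lie just above the limit of 3 counts, and the gene stayed under the detection level of 2 CPM in both libraries. Thus 3 of the 4 members were detected by that rule, and Mir301b was present only as a handful of reads.

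**Figure D2:**
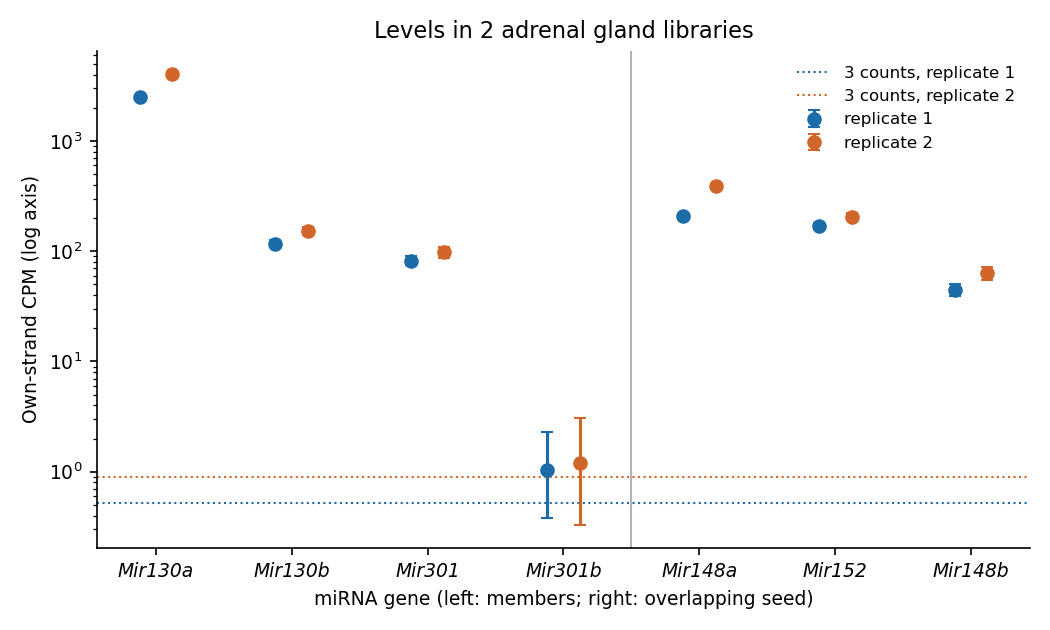
Own-strand CPM (log axis) of the 4 members and, right of the grey line, of 3 genes with an overlapping seed, in replicate 1 (blue) and replicate 2 (orange); bars are 95% exact Poisson intervals and dotted lines mark 3 counts. Mir130a stands near 3285 CPM in mean, Mir130b and Mir301 near 135 and 89.8 CPM, and Mir301b near the dotted lines, and replicate 2 is the higher point for each gene.

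The order Mir130a, Mir130b, Mir301, Mir301b was the same in both animals. Ratios within a library do not depend on the library total, so they compare the counts of the members without any scaling. How evenly the different products were captured in the libraries was not tested, and the intervals do not cover it. The counts are per gene and not per length, and each member gives products of nearly equal length. Mir130a exceeded Mir130b 21.6-fold in replicate 1 (95% Clopper-Pearson interval 20.0 to 23.3) and 26.4-fold in replicate 2 (24.2 to 28.9). It exceeded Mir301 30.8-fold (28.1 to 33.8) and 41.5-fold (37.2 to 46.4), a log2 difference of 5.16 ± 0.30 (SD, n = 2). The distance from Mir130a to Mir130b and Mir301 was thus greater in replicate 2, and the intervals of the 2 animals did not overlap.

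Mir130b and Mir301 are the closest neighbours in this order. Mir130b exceeded Mir301 1.43-fold in replicate 1 (1.27 to 1.61) and 1.57-fold in replicate 2 (1.36 to 1.81), so the order held beyond counting error within each animal. Their CPM did not overlap across the animals either, at 117 and 153 against 82.0 and 97.5.

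Mir130a accounted for nearly all counts of the family. Its share was 92.7% in replicate 1 (92.2 to 93.1) and 94.1% in replicate 2 (93.7 to 94.5). Mir130b followed with 4.30% (3.99 to 4.63) and 3.56% (3.26 to 3.88), and Mir301 with 3.01% (2.75 to 3.29) and 2.27% (2.03 to 2.53). Mir301b held 0.0383% (0.0140 to 0.0832) and 0.0279% (0.00761 to 0.0715).

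The neighbours Mir130b and Mir301b, 257 bases apart in 1 intron, differed more than 100-fold. Mir130b exceeded Mir301b 112-fold in replicate 1 (51.3 to 307) and 128-fold in replicate 2 (49.5 to 470), a log2 difference of 6.90 ± 0.13 (SD, n = 2). The intervals are wide because they rest on 6 and 4 reads of Mir301b, and those of the 2 animals overlap almost entirely. Mir301 exceeded Mir301b 78.7-fold (35.9 to 215) and 81.2-fold (31.4 to 300.0), although their 3p stretches differ at 1 position only. How far reads shared with similar sequences lowered the count of Mir301b was not tested.

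Uneven neighbours were common in these libraries. There were 88 pairs of consecutive miRNA genes on 1 strand, at most 1 kb apart, in which at least 1 gene had 100 or more counts in mean. Their median difference was 4.26 on the log2 scale, with genes at 3 counts or fewer set to 3. By these values Mir130b with Mir301b came in place 19: 18 other pairs were more uneven and 69 had a lower value. In 16 of these 18 the lower gene had 3 counts or fewer in a library. The other 2, Mir20a with Mir19a and Mir29a with Mir29b-1, were named after their values were seen. Mir29b-1 carries a copy number in its symbol, and reads that align to more than 1 copy are left out of its count. Among the 71 pairs with no copy number in either symbol, 15 had a higher value than Mir130b and Mir301b, and the median was 4.35. Of the 88 pairs, 29 had a lower gene at 3 counts or fewer in a library. Where such a count was under 3, the value is a lower bound. Some pairs placed below Mir130b with Mir301b can therefore be more uneven. An example is Mir1306 (337 and 328 counts) with Gm24572 (2 and 3 counts).

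**Figure D3:**
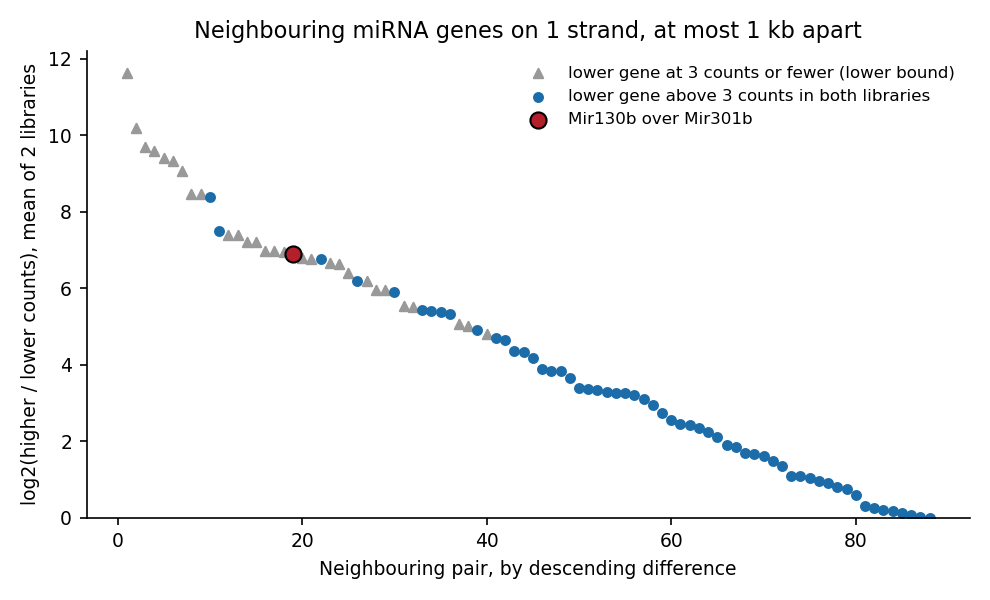
Mean log2 ratio of the higher to the lower gene (y axis) for 88 neighbouring pairs in descending order (x axis), averaged over both libraries. Triangles are pairs whose lower gene had 3 counts or fewer in a library. Their value is a lower bound where such a count was under 3. Mir130b over Mir301b, the red point at 6.90, is in place 19 of 88.

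Reads on the opposite strand were found at Mir130a and at no other member. They numbered 12 of 14544 reads in replicate 1 (0.0825%, 95% Clopper-Pearson interval 0.0426 to 0.144) and 7 of 13488 in replicate 2 (0.0519%, 0.0209 to 0.107). Both counts lie above the limit of 3 reads, and the 2 intervals overlap. At Mir130b, 0 of 674 and 0 of 510 reads were on the other strand, which allows shares of up to 0.445% and 0.588%. At Mir301, 0 of 472 and 0 of 325 allow up to 0.636% and 0.923%, and the 6 and 4 reads of Mir301b set no useful limit. A share as small as that of Mir130a was not detectable at this depth in the other members.

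Opposite-strand reads in both libraries were seen at 14 of the 259 miRNA genes with 100 or more own-strand counts in mean, or 5.41%. Mir130a was 1 of the 3 members in that set. Over both libraries its share was 0.0678%, and 14 other genes had a share at least as high. In 7 of these a miRNA gene is annotated on the other strand, as at Mir337, which overlaps Mir3544 and had 1.25% of its reads there. At the other 7, as at Mir130a, none is annotated, and their shares ranged from 0.0713% at Mir122 to 4.10% at Mir203. Mir708 had 0.380%, and Mir34b (3.43%) and Mir345 (2.33%), named with Mir203 after their values were seen, were also above Mir337. At genes with fewer reads, very few opposite-strand reads already give such a share. Mir760 (2 and 0 such reads) and mmu-mir-3535 (0 and 2), also among the 7, were below the limit of 3 reads in both libraries. Reads counted without regard to strand equalled the sum of both strands at Mir130a, 14544 and 13488.

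Every member had a higher CPM in replicate 2, but after scaling for composition only Mir130a of the 3 tested members passed the test. The libraries were scaled by TMM, which moves log2 ratios of replicate 1 over replicate 2 up by 0.20 against total counts. The log2 ratio of Mir130a was -0.48 (95% interval -0.51 to -0.45, exact binomial test, Benjamini-Hochberg adjusted p = 1.09e-167). That of Mir130b was -0.19 (-0.35 to -0.02, unadjusted p = 0.0303 and adjusted p = 0.051 by the same exact test), and that of Mir301 was -0.05 (-0.26 to 0.16, adjusted p = 0.741, exact test). Mir301b, with 5 counts in mean, was below the minimum of 10 and was not tested. Its log2 ratio was -0.06 with an interval of -2.08 to 2.27.

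The exact test compares these 2 libraries and not conditions, and with 1 library on each side it has no replicate check. It called 59.1% of the 389 genes tested in either direction, and 28.3% as lower in replicate 1. Of the 3 members tested, 1 was called, lower in replicate 1. With 3 genes, that count is not set apart from the background. The median log2 ratio was -0.19 over the 3 members and 0.01 over all genes tested. No member was more than 2-fold apart after scaling, against 14.4% of the genes tested.

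The count of members called depended on the scaling and the test. By total counts all 3 tested members were called lower in replicate 1. Their log2 ratios were -0.68 for Mir130a, -0.39 for Mir130b and -0.25 for Mir301. Under that scaling 65.55% of the 389 genes tested were called in either direction, and the median log2 ratio of all was -0.19. With the common dispersion of the same 2 libraries, the exact test of edgeR called 0 of the 3 (4 of 389 genes overall), and Mir130a had an unadjusted exact p of 0.523. That dispersion holds the very differences under test, so the edgeR test could call few genes and decides nothing here. The direction for Mir130a was the same under total counts, TMM and DESeq2 size factors.

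**Figure D4:**
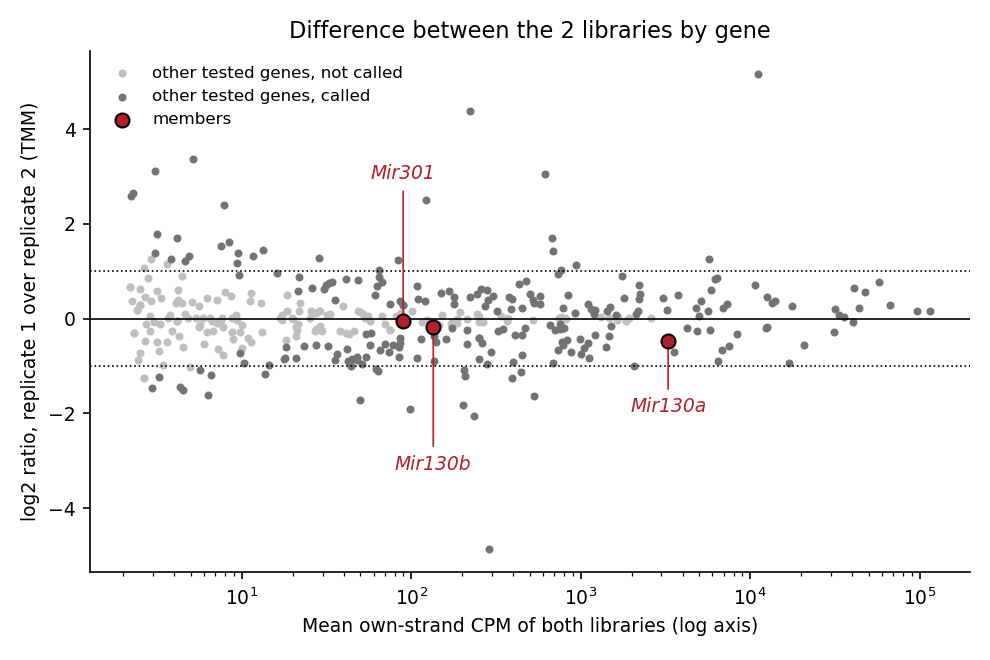
Log2 ratio of replicate 1 over replicate 2 after TMM scaling (y axis) against mean CPM (x axis, log axis) for 389 tested miRNA genes; dark grey points passed the exact binomial test, light grey points did not, red points are the 3 tested members and dotted lines mark 2-fold. The members lie at -0.48, -0.19 and -0.05, all inside the dotted lines.

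The neuroendocrine list of the medulla (Mir375, Mir7b, Mir7-1 and Mir7-2) was detected with all 4 genes, in sum 72802 CPM in the first animal and 51447 CPM in the second. Of these, 2 were called higher in replicate 1, 1 (Mir7b) was called lower and 1 was not called, and Mir375 held most of the sum (68780 and 46236 CPM). Over all 389 genes tested, 120 were called higher in replicate 1, 110 lower and 159 not called. Markers of other cell types differed between the animals to unlike degrees. The smooth muscle genes Mir143 and Mir145a summed to 32758.5 and 33318.0 CPM, with Mir143 called higher in replicate 1 and Mir145a lower. The 4 kidney genes summed to 54.6 and 69.0 CPM. Of the 3 kidney genes tested, 1 was called lower in replicate 1 and 2 were not called. All 3 red blood cell genes (Mir451a, Mir144, Mir486) were called higher in replicate 1, with sums of 22813 and 901 CPM, and none of them was at 0. With these 3 genes left out of the total, Mir130a had 2585 and 4048 CPM, a 1.57-fold difference in place of 1.60-fold. Per 1000000 reads in the file, aligned or not, Mir130a had 855 and 1254, a 1.47-fold difference. Mir122, the hepatocyte miRNA, was higher in replicate 2 (690 and 1331 CPM), and the 4 white blood cell genes summed to 1434 and 1777 CPM, with 2 called in each direction. Of the 8 striated muscle genes, 4 were tested, 3 were called higher in replicate 1 and 1 lower, 2 were at 0 in both libraries, and the sum was 719 and 454 CPM. The part of these tissues in the difference at Mir130a was not tested. In whole tissue, fewer cells of a type and less RNA per cell cannot be told apart.

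Endothelial cells are a known site of miR-130a. Their leading marker was called higher in replicate 1, as were 120 of all 389 genes tested. Mir126a, which lies in Egfl7, had 69154 and 65133 CPM. Its log2 ratio was 0.29 after scaling, against -0.48 for Mir130a, and 0.09 by total counts, against -0.68. The opposite-strand partner of Mir126a, Mir126b, had 1 and 8 counts, higher in replicate 2 but too few to be tested. The difference between the ratios of Mir126a and Mir130a was not tested, and neither was the part of endothelial cells in the difference at Mir130a.

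The list of 12 miRNA genes with a part in angiogenesis had 10 genes tested. It had 5 called higher in replicate 1, 2 lower and 3 neither, beside 120, 110 and 159 of all 389 genes tested. Its median log2 ratio was 0.08, beside 0.01 over all genes tested, and turned to -0.12 by total counts, where the median of all genes was -0.19. Its leading genes were Mir126a, Mir17 of the miR-17-92 cluster (1473 ± 139 CPM, SD, n = 2) and the neuronal and endothelial gene Mir132 (1432 ± 23.7 CPM). Mir130a, at 3285 CPM, was thus above all of them but Mir126a in both libraries.

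Mir27a and Mir27b, 2 other genes reported to target Pparg, were lower in replicate 1, as Mir130a was. Mir27b had 2487 and 4632 CPM, with a log2 ratio of -0.70, and Mir27a had 759 and 1343 CPM, with a log2 ratio of -0.62 (adjusted p = 1.30e-90, exact binomial test). Both were called lower in replicate 1, beside 28.3% of all 389 genes tested. With 2 genes, that count is not set apart from the background. The sum of the pair, 3246 and 5975 CPM, was of the same order as that of the family.

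Other genes listed with the same seed gave no counts. Among the 1738 mature sequences listed by RefSeq, 7 carry the seed AGUGCAA (0.403%), and 4 of them belong to no member. They are shown for comparison with the 3p products above, with the seed in capitals.
miR-130c: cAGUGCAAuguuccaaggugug
miR-721: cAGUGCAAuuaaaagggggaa
miR-6341: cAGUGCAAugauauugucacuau
miR-6389: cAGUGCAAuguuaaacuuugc
Mir130c, Mir721, Mir6341 and Mir6389 each had 0 counts in both libraries, which allows at most 0.522 and 0.900 CPM. Among genes with a listed mature sequence of this seed, the counts were therefore those of Mir130a, Mir130b and Mir301. The few of Mir301b, whose hairpin holds the same letters, come in addition. The list has 1005 hairpins against 2202 genes counted, so genes without an entry were not searched.

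The miR-148 and miR-152 family has a seed shifted by 1 base, CAGUGCA, which shares the run AGUGCA with the family's seed. The 3 products are shown so that the shift can be seen.
miR-148a-3p: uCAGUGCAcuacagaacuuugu
miR-148b-3p: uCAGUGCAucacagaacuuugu
miR-152-3p: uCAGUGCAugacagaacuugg
Mir148a had 208 and 387 CPM, Mir152 169 and 206 CPM and Mir148b 44.3 and 63.3 CPM. After scaling their log2 ratios were -0.70, -0.09 and -0.32. Mir148a and Mir148b were called lower in replicate 1 (adjusted p = 7.70e-33 and 0.035, exact binomial test), beside 28.3% of all genes tested. The miR-130 and miR-301 genes summed to 6.48 times the miR-148 and miR-152 genes in replicate 1 and 6.54 times in replicate 2. The sums of the 2 families thus kept nearly the same ratio while both were higher in replicate 2.

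The genes nearest to each member in the plane of log2(CPM + 1) of the 2 libraries were named by a fixed rule of distance. With 2 libraries, nearness means only a like level and a like ratio. Mir27b was nearest to Mir130a, at a distance of 0.20, and then Mir335 (3232 and 3246 CPM) at 0.48. Mir700 (110 and 163 CPM) and Mir574 (128 and 162 CPM) were nearest to Mir130b, at 0.13 and 0.15. Mir1193 (80.5 and 97.5 CPM) and Mir679 (81.4 and 94.8 CPM) were nearest to Mir301, at 0.03 and 0.04. Mir301b had no close neighbour among detected genes, since all of these are above it: Mir7019 and Mir1960, at 2.09 and 2.43 CPM in replicate 1, lay 0.77 and 0.90 away.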

How the data were processed

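Small RNA from adrenal gland tissue was sequenced in 2 libraries, numbered by the labels as 2 animals. The deposited files hold raw counts of reads at each miRNA gene (mm10, GENCODE M21), per the file headers of the accompanying descriptions, in 3 columns, read here as counts without regard to strand, on the gene's strand and on the opposite strand. The first sums to less (4746565 and 2860247) than the second (5752428 and 3333149), and more reads are listed as ambiguous in it. Aligner, counter and trimming settings: not given in the sources used here. The leading rows that name no gene held 66.2% and 69.0% of the reads and stayed out of library sizes. All 2202 identifiers had a GENCODE symbol.

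Levels used the gene's strand. Shares and ratios have Clopper-Pearson and CPM exact Poisson intervals, at 95%. Each gene's counts in the 2 libraries were set against each other by an exact binomial test (two-sided) after TMM scaling (edgeR), adjusted by Benjamini-Hochberg across all genes whose mean count was at least 10 (389 genes), with a threshold of 0.05. Log2 ratios between libraries have 0.5 counts added, and those between genes none. With 1 group, no quasi-likelihood test was possible. Besides the members, named genes are those with their seed or a shifted seed, up to 3 leading genes of a list, the nearest in level, those within 10 kb and up to 3 with at least the opposite-strand share of Mir130a. Members and lists were chosen with earlier results of these data known. Sequences are from RefSeq (GRCm38.p6). Tools were edgeR 4.0.16 and DESeq2 1.42.0 in R 4.3.3, and SciPy 1.17.1, NumPy 2.4.6, matplotlib 3.10.9 and pandas 2.3.3 in Python 3.11.15.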

Additional observations from a re-analysis of the deposited data

How the results depend on the processing

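The number of members called between the libraries, 1 of 3, rose to 2 with DESeq2 size factors, with genes of 100 or more counts in mean and with both strands summed, and to 3 by total counts. It was 1 of 4 with no filter on low counts and fell to 0 of 3 with the common dispersion of edgeR. The gene gained was Mir130b, whose adjusted p of 0.051 by the exact binomial test is near the threshold, and by total counts also Mir301. The share called over all genes was 59.1% in the main setting. It was 60.93% with DESeq2 size factors, 76.83% with 100 or more counts, 61.17% with both strands and 65.55% by total counts. With no filter it was 31.07%, and with the edgeR dispersion 1.03%. With so few members, their counts are not set apart from these shares. No member was over 2-fold apart under any of the alternatives run. The family sum of 3511 CPM became 1127 per 1000000 reads in the file, since that denominator is larger. The log2 difference of Mir130b over Mir301b, 6.90, became 6.76 with 0.5 counts added and 5.89 with 5 added, since Mir301b has so few reads. No log2 ratio of a member between libraries changed its sign under the alternatives run. Depth limits Mir301b, whose 6 and 4 reads leave its level uncertain by several-fold, and 2 animals limit every mean. No paired analysis was possible because there is only 1 group.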
